A study of Mus musculus with 2 samples.

Results

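Interferon-induced GTPase genes encode large and small GTP-binding proteins that cells make in response to interferons. The 9 genes described here were taken by symbol from the 32285 genes of the count matrices, without regard to their values: Iigp1, Igtp, Irgm1, Irgm2 and Ifi47 of the immunity-related GTPase (IRG) family, and Gbp2, Gbp3, Gbp7 and Gbp9 of the guanylate-binding protein (GBP) family. All 9 were found in both matrices. The study profiled single mouse bone marrow cells with a droplet-based 3′ RNA assay, in 1 library of the Phf6 wild-type genotype (WT) and 1 library of the Phf6 knockout genotype (KO). Phf6 encodes a chromatin protein mutated in leukaemia. In both groups the marrow cells had been transduced with a vector that carries RUNX1-S291fs, a truncated form of a blood transcription factor, together with GFP. GFP-positive cells were then transplanted, and 8 weeks later GFP+Lin- cells (transduced, and low in surface markers of mature blood lineages) were sorted from the recipients' marrow. No group without the RUNX1 mutant was analysed here. The sources used here do not give the age or strain of the mice, the number of recipients pooled in a library or the deleted part of Phf6.

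IRG and GBP proteins are best known from cell-intrinsic defence, in which they gather on the membranes of vacuoles that hold intracellular microbes and help to break them open. Within the IRG family, the Irgm proteins and Igtp sit on host membranes and keep the effector proteins, among them the products of Iigp1 and Ifi47, from acting there. Transcription of both families is switched on through JAK kinases and STAT factors. Interferon gamma acts mainly through STAT dimers at GAS elements. Type I interferons act through a complex of STAT factors with IRF9 at interferon-stimulated response elements (ISRE). In blood stem cells, Irgm1 is known for limiting the response to interferon.

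After filtering, 4478 cells of the WT library and 4709 of the KO library remained. Their depth had a median of 24800 and 21428 UMIs per cell, where a UMI (unique molecular identifier) tags 1 captured RNA molecule. Phf6 RNA was at 41.7 counts per 1000000 UMIs (CPM) in the WT library and 20.7 in the KO library. Because the deleted part is unknown, a 3′ count may lie outside it and is a weak check of the label. Although the sort was for Lin- cells, cells with RNA markers of maturing neutrophils (246 WT, 184 KO) and B cells (68 and 50) were present. Cells were grouped into 26 clusters without the use of 108 interferon-related genes, though not every such gene was left out. Of these clusters, 20 took a class name from marker genes. The suffix "like" marks that a class was read from RNA and not from surface proteins. The 6 unnamed clusters held 1027 WT and 1489 KO cells. The libraries shared 7 barcode sequences among kept cells. Each genotype is 1 library, so no test between genotypes was possible. All intervals are exact 95% intervals (Poisson for levels, conditional binomial for ratios, Clopper-Pearson for shares) and cover counting error only, not the spread between mice. Ratios are log2 of KO over WT CPM.

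On GRCm38, 4 of the genes lie on chromosome 11: Irgm1 (ENSMUSG00000046879) and Ifi47 (ENSMUSG00000078920) near one another, and Igtp (ENSMUSG00000078853) and Irgm2 (ENSMUSG00000069874) side by side about 9 megabases further on. Gbp7, Gbp3 and Gbp2 (ENSMUSG00000040253, ENSMUSG00000028268 and ENSMUSG00000028270) lie within 107.7 kb of chromosome 3, from 142530342 to 142638008. Gbp9 (ENSMUSG00000029298) lies on chromosome 5, from 105077630 to 105139539. Promoter windows, from 250 bases before to 50 bases after a gene's start, were found for 7 of the 9 genes in the RefSeq table of build GRCm38.p6. Iigp1 and Gbp9 had no entry. They were searched on both strands for the GAS letters TTCNNNGAA and the ISRE letters GAAANNGAAA. The 120 bases just upstream of the start are shown for 5 genes, 3 with large and 2 with small KO over WT ratios, with GAS and ISRE matches in capitals and each sequence read 5′ to 3′ on the gene's strand, here the plus strand.
Igtp, chr11:58199436-58199555: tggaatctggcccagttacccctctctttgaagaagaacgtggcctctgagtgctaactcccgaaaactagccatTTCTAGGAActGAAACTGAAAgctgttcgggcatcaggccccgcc
Irgm2, chr11:58214857-58214976: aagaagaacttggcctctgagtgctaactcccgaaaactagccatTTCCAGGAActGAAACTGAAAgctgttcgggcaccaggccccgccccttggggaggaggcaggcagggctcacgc
Gbp2, chr3:142620543-142620662: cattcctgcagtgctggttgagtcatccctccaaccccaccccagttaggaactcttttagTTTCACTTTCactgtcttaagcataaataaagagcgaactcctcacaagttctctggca
Gbp3, chr3:142559924-142560043: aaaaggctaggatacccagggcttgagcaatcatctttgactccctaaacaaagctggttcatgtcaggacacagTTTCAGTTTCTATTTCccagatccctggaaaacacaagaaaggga
Ifi47, chr11:49076467-49076586: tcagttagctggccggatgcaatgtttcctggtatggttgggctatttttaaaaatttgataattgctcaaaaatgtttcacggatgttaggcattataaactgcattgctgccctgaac

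The Igtp and Irgm2 windows are near copies, with 244 identical bases of 265 aligned and 5 gapped positions (90.4% identity). Both hold the 2 elements in tandem: in Igtp the GAS match ends 37 bases before the start and the ISRE match begins 34 bases before it. In Gbp2 the single ISRE match lies 59 to 50 bases before the start on the opposite strand, and in Gbp3 a pair of ISRE matches overlap each other. Irgm1 also held 2 overlapping ISRE matches, and Gbp7 held 2 GAS matches and 1 ISRE match. Ifi47 held neither motif in its window, and neither did the second RefSeq window of Gbp3. Among all 32851 promoter windows of the same length, 8.30% held a GAS match, 3.44% an ISRE match and 0.454% both. A match describes the letters only, and its absence from a window says nothing about binding.

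Over all cells, RNA of every one of the 9 GTPase genes was more abundant per UMI in the KO library than in the WT library. The 9 genes together held 23185 UMIs in WT (195.1 CPM) and 32931 UMIs in KO (298.2 CPM), a log2 ratio of 0.61 (interval 0.59 to 0.64). The IRG genes stood at 117.1 and 185.3 CPM and the GBP genes at 78.0 and 112.9 CPM, ratios of 0.66 and 0.53. Of the 7 genes with a mean of at least 10 CPM, 4 were at least 1.5-fold higher in KO (Iigp1, Igtp, Irgm1 and Gbp2) and 0 were as much lower. Among all 8580 genes at that level 2.06% were as much higher and 1.24% as much lower. The median log2 ratio was 0.77 for the 7 genes and 0.06 for all genes. Irgm2 and Gbp9 lay under the minimum and are described by their values.

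**Figure D1:**
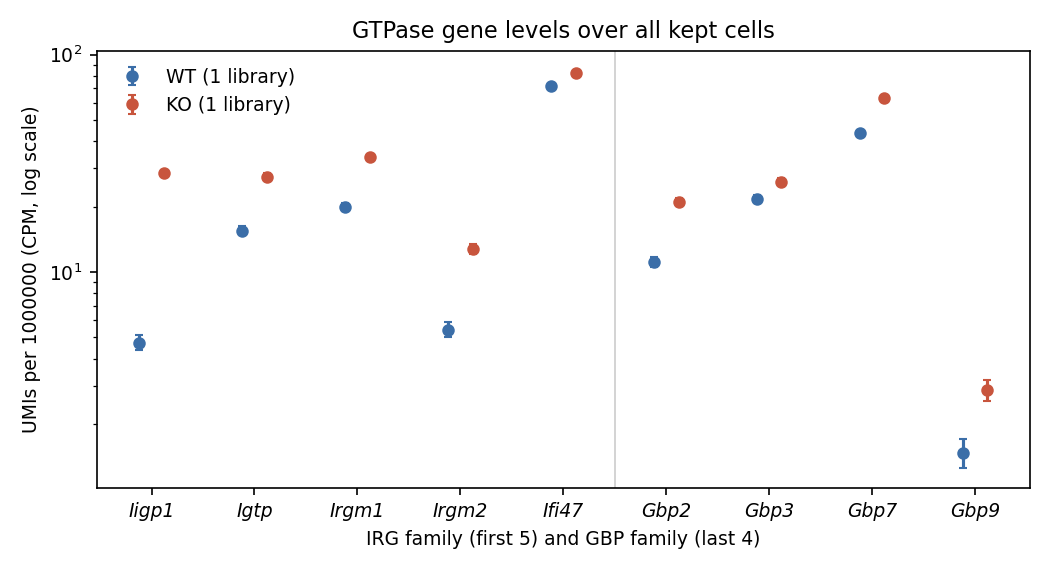
Level of each GTPase gene over all kept cells of the WT library (blue) and the KO library (red), in CPM on a log axis, with exact 95% Poisson intervals. Each pair of points has the KO library on top, with the widest gap for Iigp1 (4.74 and 28.5 CPM) and narrow gaps for Ifi47 (71.6 and 82.7) and Gbp3 (21.7 and 26.0).

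The effector genes of the IRG family lay at the 2 ends of the range. Iigp1 (ENSMUSG00000054072, on chromosome 18), which encodes an effector that coats microbe-holding vacuoles, had 563 UMIs in WT and 3147 in KO, a 6.02-fold difference. Of the 8580 genes, 1 had a higher ratio, and it was another IRG gene, Gm4951 (3.43 and 20.7 CPM). Ifi47, also of the effector group, had 71.6 CPM in WT and 82.7 in KO, with a log2 ratio of 0.21 (interval 0.17 to 0.25), and 22.3% of all genes had a higher ratio. Same-strand overlap limits the reading of Ifi47: in GENCODE M21 it overlaps Olfr56, which was counted separately (936 and 1117 UMIs). Of 1547 words of 90 bases in the last 600 bases of Ifi47 transcripts, 22 (1.42%) are also in Olfr56.

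The genes of the IRG regulators lay between these. Igtp had 15.5 CPM in WT and 27.4 in KO (0.82, interval 0.74 to 0.91), and Irgm1 had 19.9 and 33.9 CPM (0.77, interval 0.70 to 0.85). Irgm2 had 645 and 1416 UMIs, 5.43 and 12.8 CPM, a log2 ratio of 1.24 (1.11 to 1.38). Igtp and Irgm2 overlap on the same strand in the annotation. No word of 90 bases was shared between the ends of their transcripts.

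The ratios of the GBP genes also differed from one another, over a narrower range than those of the IRG genes. Gbp2 had 1322 UMIs in WT and 2324 in KO (log2 ratio of CPM 0.92, interval 0.82 to 1.02), and Gbp7 stood at 43.8 and 63.0 (0.53, interval 0.47 to 0.58). Gbp3 stood at 21.7 and 26.0 CPM (0.26, interval 0.18 to 0.34). Gbp9 was scarce, with 174 and 315 UMIs (1.46 and 2.85 CPM; 0.96, interval 0.69 to 1.24), and it overlaps Gbp8 and Gbp4 on the same strand. So the neighbours Gbp2, Gbp3 and Gbp7 on chromosome 3 had ratios whose intervals do not meet. Of the transcript-end words of Gbp3, 0.373% are shared with Gbp7. UMI counts of the 3′ assay were not divided by length. The KO and WT levels are compared here within a gene or within a summed set, and single genes are not ranked by level.

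Iigp1 is the 1 called gene whose ratio moved by over 1.5 times in fold under another setting: with all clusters weighted alike its log2 ratio was 1.77 in place of 2.59. Igtp was at 0.58 under that weighting, just short of 1.5-fold. Without the 5% of cells richest in these UMIs, and without cells of 10 or more Iigp1 UMIs, the mean of Iigp1 fell under the minimum and 3 genes were counted, with Iigp1 ratios of 2.46 and 2.05. At a minimum of 1 CPM all 9 genes were measured and 6 were at least 1.5-fold higher (4.11% of all genes), with Irgm2 and Gbp9 added. At a minimum of 50 CPM only Ifi47 and Gbp7 remain, and 0 of these 2 were 1.5-fold higher (1.34% of all genes at that level).

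The RNA was found in more cells of the KO library. By raw counts, the 5% of cells with most UMIs of the 9 genes held 17.4% of these UMIs in WT and 24.4% in KO. To compare cells at 1 depth, 5000 UMIs were drawn at random from every cell, and the 242 WT and 199 KO cells with fewer were set aside. At least 1 UMI of the 9 genes was then found in 59.3% of 4236 WT cells (57.8 to 60.8). In the KO library it was found in 69.6% of 4510 cells (68.3 to 71.0). At least 3 UMIs were found in 10.0% of WT and 20.7% of KO cells, and at least 10 in 7 WT cells (0.165%) and 75 KO cells (1.66%). The mean was 1.07 UMIs per WT cell and 1.72 per KO cell. At least 4 of the 9 genes were detected together in 1.25% of WT cells (0.939 to 1.63), against 5.34% in KO (4.71 to 6.04). The distribution was therefore shifted at low counts and longer at high counts.

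**Figure D2:**
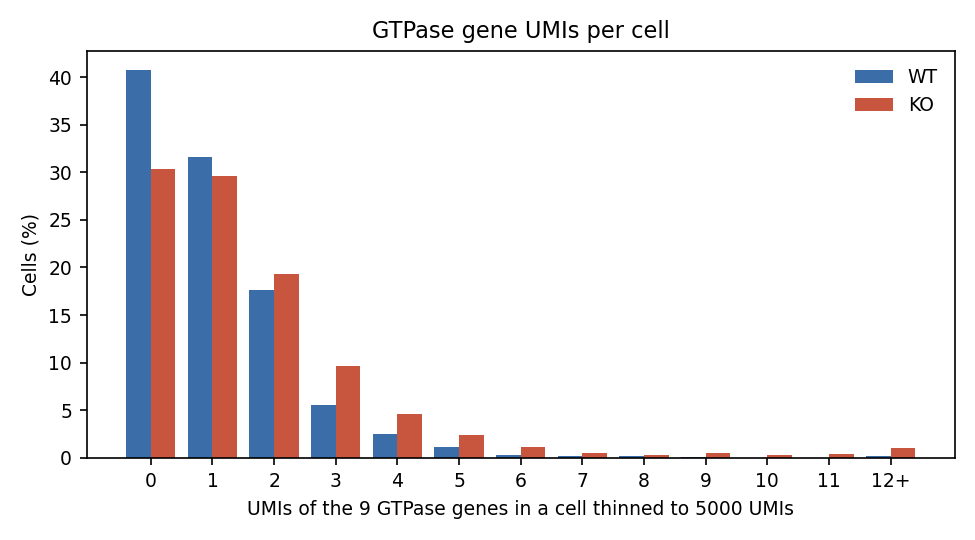
Share of cells (%) by the number of UMIs of the 9 GTPase genes in a cell thinned to 5000 UMIs, for the WT library (blue) and the KO library (red); the last bar pools 12 or more UMIs. The KO library has fewer cells without a UMI and more cells with 3 or more (20.7% against 10.0%).

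Iigp1 was detected in few cells, and the ratio between the KO and WT shares was largest for it. It had a UMI in 5.25% of WT cells and 16.5% of KO cells, or 2.12% and 8.38% after thinning. Igtp went from 28.1% to 34.7% of cells (7.53% and 11.9% thinned) and Irgm1 from 33.8% to 42.2% (9.14% and 16.2% thinned). Gbp2 was found in 20.5% and 28.5% of cells (6.73% and 9.87% thinned), and Irgm2 in 11.5% and 19.3% (3.23% and 6.67% thinned). Ifi47 was found in 70.2% and 73.0% of cells and Gbp3 in 33.1% and 33.8%, which became 29.1% and 34.4%, and 9.23% and 11.1%, when thinned. No class in these libraries is known to lack the genes. As a low reference for Iigp1, 0 of 246 WT and 7 of 184 KO maturing neutrophil-like cells had a UMI of it, at median depths of 26939.5 and 29532.5 UMIs. For the WT count of 0, a limit of 3 counts in 246 cells allows 1.22%, and the exact interval reaches 1.49%.

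Cells rich in Iigp1 RNA were rich in the other GTPase RNAs as well, in both libraries. At least 10 Iigp1 UMIs were counted in 8 WT cells (0.179%, interval 0.0772 to 0.352) and 66 KO cells (1.40%, interval 1.09 to 1.78), and these cells held 30.4% and 52.7% of all Iigp1 UMIs. In them the other 8 genes together stood at 1124 CPM in WT and 1164 CPM in KO, against 188.8 and 255.1 CPM in all other cells. The intervals of the levels in the rich cells overlap between libraries (981 to 1281 and 1114 to 1215). Of the 66 KO cells, 30 were HSC/MPP-like, 12 monocyte-like, 6 erythroid-like and 15 in unnamed clusters. Their median depth, 20669 UMIs, was near the 21437 of the remaining KO cells. Without the rich cells of both libraries the log2 ratio of the 9 genes was 0.48 in place of 0.61.

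Levels differed between lineages in both libraries. The highest summed level was in cluster 6, HSC/MPP-like cells (resembling haematopoietic stem cells and multipotent progenitors) led by the stem cell genes Mecom and Hlf. It stood at 364.2 CPM in WT (164 cells) and 636.3 CPM in KO (379 cells). In WT its interval met that of the next cluster, 19, also HSC/MPP-like (354.7 CPM), while in KO it stood clear of cluster 19 (453.9 to 540.2). Among clusters with at least 50 cells, the lowest level in WT was in plasma cell-like cells (42.3 CPM, 53 cells), which the KO library lacked. The next low WT levels were in erythroid-like cluster 22 and in maturing neutrophil-like cells (117.4 CPM, interval 109.3 to 126.0). The latter were also lowest in KO (167.8 CPM, 157.1 to 179.0). The highest cluster level was 8.61 times the lowest among the 25 WT clusters and 3.79 times among the 22 KO clusters. These spreads cannot be set against each other, because the WT set includes the plasma cell-like cells and cluster 22. The KO set includes neither. Between these ends the order differed between the libraries: erythroid-like cluster 13 was 22nd of 25 in WT and 7th of 22 in KO, cluster 10 was 19th and 6th, cluster 18 was 5th and 13th, and cluster 15 was 9th and 18th. Of the neighbours in this order, 21 of 24 pairs in WT and 17 of 21 in KO had overlapping intervals.

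**Figure D3:**
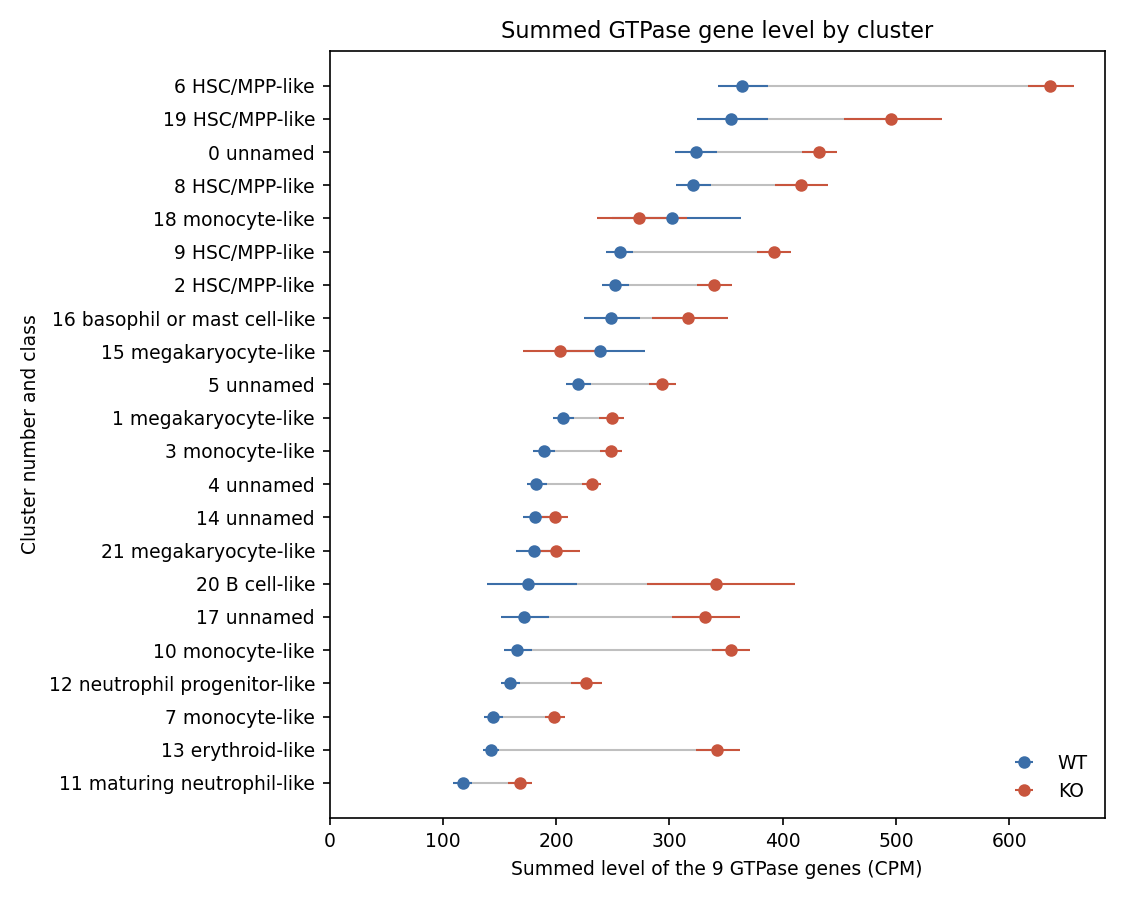
Summed level of the 9 GTPase genes (CPM) in each cluster with at least 50 cells in each library, sorted by the WT level, with exact 95% Poisson intervals; blue is WT, red is KO. The KO point lies to the right in 20 of 22 clusters, and clusters 15 and 18 have overlapping intervals in the other order.

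The KO over WT difference was present in most clusters and differed in size. The summed level was higher in KO in 20 of the 22 clusters that held 50 or more cells of both libraries. The interval of the ratio lay above 0 in 19 and below 0 in 0 of them, and the median log2 ratio was 0.43. The 2 exceptions were cluster 15, low-UMI megakaryocyte-like cells with 160 and 136 UMIs of the genes (-0.23, interval -0.57 to 0.11), and cluster 18, shallow monocyte-like cells led by Adgre4 and Fcgr4 (median depths 6081 and 7776.5 UMIs, no monocyte marker among the 10 leading genes, and a macrophage score of 5.41 above the monocyte score of 2.53, with 1 macrophage marker found in 25% of cells) with 114 and 190 UMIs (-0.15, interval -0.49 to 0.20). The highest ratio was 1.27 in cluster 13, of erythroid-like cells led by Car1 and Klf1. By gene, the interval lay above 0 in 18 of the 22 clusters for Iigp1, in 16 each for Igtp, Irgm1 and Gbp7, and in 13 each for Irgm2 and Gbp2. It did so in 7 clusters for Ifi47, 4 for Gbp9 and 2 for Gbp3.

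In HSC/MPP-like cells (1064 WT, 1178 KO) the 9 genes stood at 289.0 CPM in WT (282.1 to 296.0) and 452.8 CPM in KO (444.0 to 461.8). The log2 ratio was 0.65 (0.60 to 0.69). Of 8 genes at 10 CPM or more, 6 were at least 1.5-fold higher in KO and 0 lower, where 3.32% of all genes were as much higher and 1.08% lower. Iigp1 went from 16.7 to 72.8 CPM (2.13), Irgm2 from 8.89 to 24.3 (1.45), Irgm1 from 26.7 to 47.3 (0.82), Gbp2 from 18.3 to 32.3 (0.82), Igtp from 26.2 to 45.2 (0.79) and Gbp7 from 62.2 to 94.4 (0.60). Ifi47 stood at 116.7 and 119.2 CPM, with an interval of its ratio from -0.05 to 0.11. Gbp3 was at 12.3 and 15.2 CPM (0.31).

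The clusters within this class had different weights: cluster 2 was the largest in WT (341 cells) and cluster 6 in KO (379 cells). Within its 5 clusters the log2 ratio of the summed level ran from 0.37 to 0.81, so each cluster on its own had more of this RNA in KO. In cluster 6, Iigp1 stood at 48.7 and 154.6 CPM and had a UMI in 36.6% of WT cells (60 of 164) and 45.9% of KO cells (174 of 379), shares whose intervals overlap. In cluster 9, HSC/MPP-like cells led by mitotic genes such as Nusap1 and Cenpf, Iigp1 stood at 4.19 and 55.9 CPM, in 9.30% and 39.9% of cells. Markers of other cell types moved in the class as well. Lymphoid progenitor markers were at least 1.5-fold higher in KO in 3 of 3 measured (median 1.53), with Dntt at 2.69 and 35.3 CPM, and summed to 39.1 and 134.4 CPM. Of 7 measured HSC/MPP markers 2 were higher, Hlf (0.79) and Adgrl4 (0.74), and of 4 measured basophil or mast cell markers 2 were lower, Ms4a2 (-1.62) and Hdc (-1.27). Outside the class, unnamed cluster 0 (243 WT and 525 KO cells) scored highest for HSC/MPP markers, at 0.982, under the 1 needed for a name. Its summed level was 323.2 CPM in WT and 432.3 CPM in KO, 3rd among the clusters of each library. The part of these shifts in the result was not tested.

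In monocyte-like cells (764 WT, 939 KO) the summed level was 168.4 CPM in WT and 250.6 CPM in KO (0.57, interval 0.51 to 0.63). Here 4 of 7 genes were at least 1.5-fold higher and 0 lower, where 1.32% of all genes were as much higher and 0.642% lower. These were Iigp1 (39 UMIs in WT and 512 in KO, log2 ratio of CPM 3.41), Igtp (7.66 to 14.9 CPM, 0.96), Irgm1 (16.7 to 30.9, 0.88) and Gbp2 (13.5 to 24.1, 0.83). Ifi47 was at 38.9 and 55.8 CPM (0.52) and Gbp7 at 44.0 and 51.5 (0.23). Gbp3 did not differ beyond counting error (37.3 and 39.3 CPM, interval of the ratio -0.06 to 0.21). The IRG genes together had a ratio of 0.90 and the GBP genes 0.29, with intervals apart (0.81 to 0.99 and 0.20 to 0.37).

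Among the 4 monocyte-like clusters the largest ratio was in cluster 10, led by Lgals3 and Fn1, where the summed level went from 165.7 to 354.0 CPM (1.10). In it Iigp1 had 1 UMI in 197 WT cells and 217 UMIs in 236 KO cells (interval of the ratio 4.98 to 12.8). Gbp2 went from 14.9 to 43.7 CPM and Irgm1 from 20.7 to 56.1 CPM in the same cluster. Ifitm6 and Ifi27l2a, which are also interferon-related, were among the top genes of cluster 10 and were not left out of the clustering. Clusters 3 and 7, the other large monocyte-like clusters, had summed levels of 189.1 and 144.2 CPM in WT and KO intervals of 238.6 to 258.4 and 189.8 to 207.4. In cluster 7, 119 of the 156 KO Iigp1 UMIs were in 1 cell, and without it the ratio was 1.95 in place of 4.02. Macrophage markers moved with the class: their summed level was 64.3 CPM in WT and 140.9 in KO monocyte-like cells, and 3 of 4 measured were higher. Of all C1qa, C1qb and C1qc UMIs, 83.1% in WT and 94.3% in KO lay in cluster 18, where the GTPase genes stood at 302.5 and 273.5 CPM. Without cluster 18 the log2 ratio of the class was 0.59 in place of 0.57. Maturing neutrophil markers moved in the class too, with a summed level of 331.2 CPM in WT and 666.0 CPM in KO. Of 4 measured, 3 were at least 1.5-fold higher: S100a8 (1.06), Lcn2 (1.04) and S100a9 (0.71). The part of these marker shifts in the result was not tested.

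**Figure D4:**
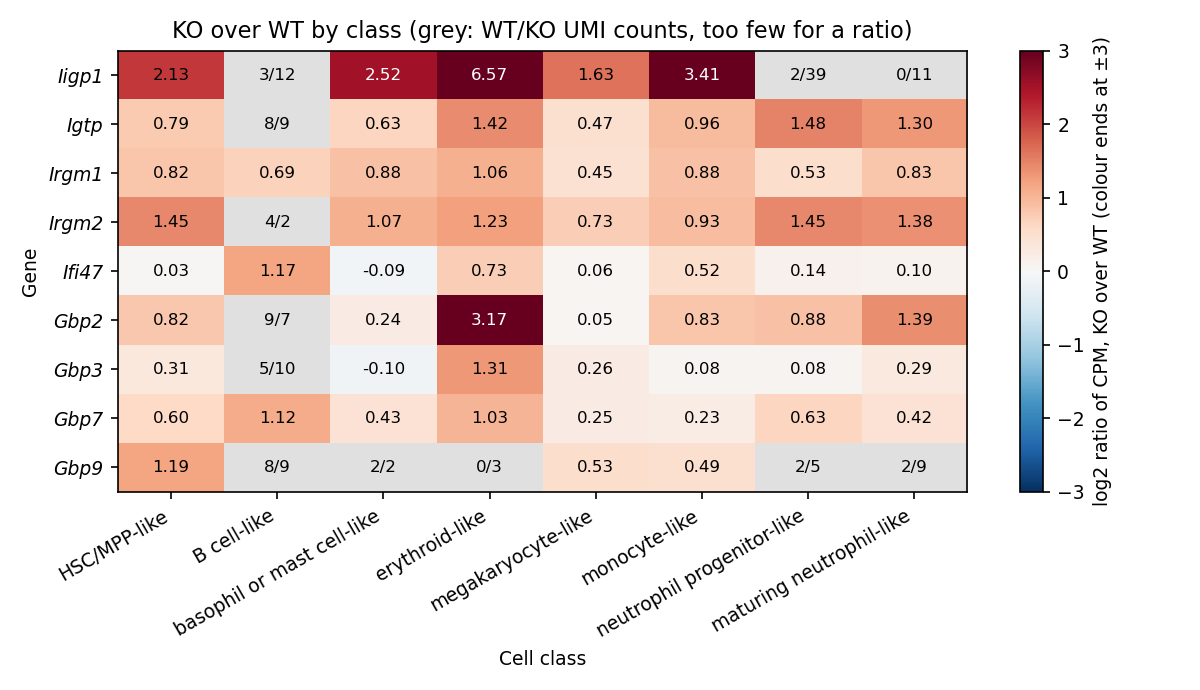
Log2 ratio of CPM, KO over WT, of each GTPase gene (rows) in each named class with cells in both libraries (columns); grey cells give the WT and KO UMI counts where there were fewer than 4 in WT or fewer than 20 in all. The colour scale is capped, and Iigp1 (6.57 in erythroid-like and 3.41 in monocyte-like cells) and Gbp2 in erythroid-like cells pass the cap. The megakaryocyte-like column runs from 0.05 for Gbp2 and 0.06 for Ifi47 to 1.63 for Iigp1.

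In megakaryocyte-like cells (543 WT, 520 KO) the difference in the summed level was small. The 9 genes stood at 202.5 CPM in WT and 237.2 CPM in KO (0.23, interval 0.15 to 0.31), and 0 of 4 measured genes were 1.5-fold higher or lower, where 1.31% of all genes were higher and 1.01% lower. Igtp was at 26.4 and 36.6 CPM (0.47) and Irgm1 at 13.8 and 18.9 CPM (0.45). Ifi47, at 104.3 and 108.7 CPM, and Gbp2, at 7.16 and 7.41 CPM, did not differ beyond counting error. Iigp1, with 19 and 51 UMIs (1.63, interval 0.84 to 2.47), and Irgm2, with 48 and 69 UMIs (0.73, interval 0.18 to 1.29), lay under the minimum and were higher in KO. The intervals of the summed ratio in HSC/MPP-like cells and in monocyte-like cells lay above that in megakaryocyte-like cells, by counting error alone. The summed ratio depends on the weight of Ifi47, which made up 104.3 of the 202.5 CPM in WT megakaryocyte-like cells. In WT it was at 116.7 CPM in HSC/MPP-like cells and 38.9 CPM in monocyte-like cells, so its weight differed between classes. Class ratios without Ifi47 were not computed. The difference between classes was not tested across mice.

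Erythroid-like cells had the largest ratio of a class, on few KO cells (267 WT, 104 KO). Their summed level was 123.3 CPM in WT and 294.7 CPM in KO (1.26, interval 1.16 to 1.36). Iigp1 had 5 UMIs in WT and 146 in KO (0.33 and 31.5 CPM), with at most 1 per WT cell and 35 in the highest KO cell. Gbp2 had 29 and 80 UMIs (1.92 and 17.3 CPM), of which 38 of the KO UMIs were in 1 cell. Igtp (1.42), Gbp3 (1.31), Irgm1 (1.06), Gbp7 (1.03) and Ifi47 (0.73) were higher as well. Depth differed here, with medians of 58127 and 38879.5 UMIs per cell. Thinned to 5000 UMIs, 43.8% of WT and 65.0% of KO cells had a UMI of the 9 genes.

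The other classes were small. Neutrophil progenitor-like cells (295 WT, 131 KO) had 159.5 and 226.5 CPM (0.51). They are cluster 12, whose highest score was for eosinophil markers, with 2 of these found in 25% of its cells. In it Prg2, an eosinophil granule gene, was at 3844 CPM in WT and 735.4 CPM in KO, while neutrophil progenitor markers summed to 26115 and 26209 CPM. The part of this shift in the result was not tested. Maturing neutrophil-like cells (246 and 184) had 117.4 and 167.8 CPM (0.51). In these Iigp1 had 0 and 11 UMIs, with a lower limit of the log2 ratio of 1.61, and Igtp had 46 and 93 UMIs (1.30). Basophil or mast cell-like cells (151 and 114) had 234.7 and 303.0 CPM (0.37), with Ifi47 and Gbp3 level within counting error. B cell-like cells (68 and 50) had 79 and 110 UMIs of the 9 genes (0.96, interval 0.53 to 1.39), too few for single genes. Cluster 17, led by lymphoid (Klrd1, Il7r) and antigen-presentation genes (Cd74, H2-Aa), stayed unnamed because 1 marker of its highest-scoring class, T or NK cells, was found in 25% of its cells, under the 3 needed. Its summed level went from 171.6 to 331.2 CPM (0.95).

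The share of cells with an Iigp1 UMI was higher in KO in each of the 22 clusters, including the 2 where its summed UMIs were not. After thinning it was higher in 19, equal in 2 and lower in 1. In cluster 18 Iigp1 had 23 UMIs in WT and 16 in KO (-1.41, interval -2.42 to -0.42), but 21 of the WT UMIs were in 1 cell. Without that cell the counts were 2 and 16 and the ratio 2.07 (interval -0.02 to 5.23). In cluster 14, unnamed and led by S100a8 and S100a9, the counts were 30 and 20, with 29 of the WT UMIs in 1 cell. Without it they were 1 and 20.

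**Figure D5:**
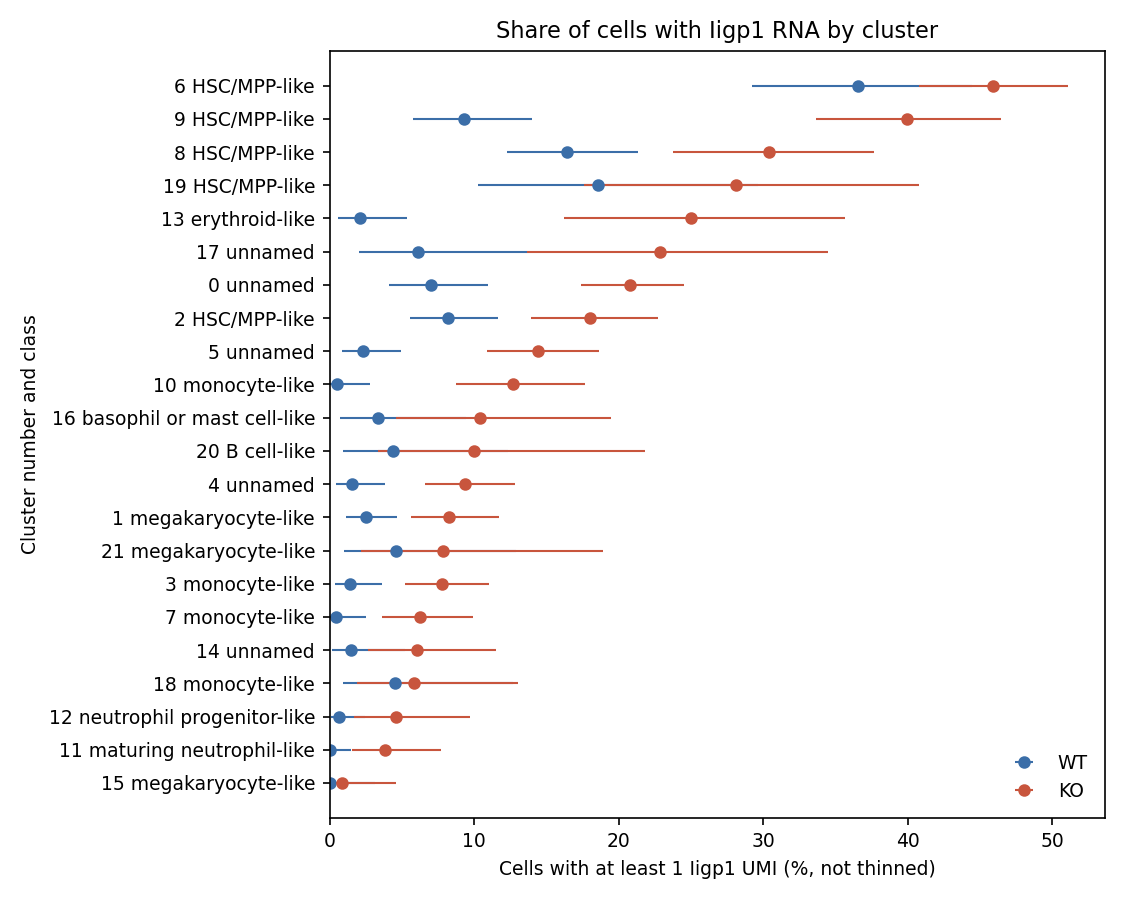
Share of cells (%) with at least 1 Iigp1 UMI in each cluster with at least 50 cells in each library, unthinned, with exact 95% Clopper-Pearson intervals, sorted by the KO share; blue is WT, red is KO. HSC/MPP-like clusters are at the top, with cluster 6 at 36.6% and 45.9% and cluster 9 at 9.30% and 39.9%.

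Across the 22 clusters, the 9 genes did not follow a single pattern. Pearson correlations of their log2(CPM + 1) levels over the clusters of 1 library ran from -0.60 to 0.80 in WT (median 0.25 over 36 gene pairs) and from -0.64 to 0.92 in KO (median 0.40). Iigp1, Irgm1, Irgm2 and Gbp2 gave the highest pairs: 0.80 for Iigp1 with Irgm2 in WT, and 0.92 for Irgm1 with Gbp2 in KO. Igtp and Gbp3 lay lowest or next to lowest in each library, at -0.60 and -0.64. Igtp was at its most abundant in megakaryocyte-like cluster 15 (117.8 and 106.1 CPM), whereas Gbp3 had 2 and 0 UMIs there. The clusters share 2 libraries and differ in depth, and these values are a description. Among the 8 other genes whose levels were most like the summed GTPase level, by the lower of the correlations within WT and within KO over 8573 genes, were Pde4b (0.80), Phf14, Ythdc1, Gpatch2, Foxo3, Kdm6a and Chd6 (0.78). The log2 ratios of these named genes over all cells ran from 0.10 to 0.35.

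The other genes of the 2 families mostly went the same way where they were measured. Of the 14 further IRG and GBP genes listed, 12 were matched and 3 reached 10 CPM over all cells, of which 2 were at least 1.5-fold higher (median 1.04): Gm4951 (2.59) and Gbp5 (7.64 and 15.7 CPM, 1.04). The third, 9930111J21Rik2, an IRG gene, was at 0.45. Below the minimum, Tgtp2 was at 1.10 (659 and 1315 UMIs), Tgtp1 at 1.45, Gbp6 at 1.99 (101 and 372 UMIs) and F830016B08Rik at 2.55 (41 and 223 UMIs). These genes have close relatives, and the sources used here do not say how reads shared between them were counted. Gvin1, a very large interferon-induced GTPase gene, had 436 and 1241 UMIs (1.62).

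RNA of the 9 ligand genes searched was at or near 0 in these sorted GFP+Lin- cells. Cells outside the sort were not profiled, and other ligand genes were not searched. Ifng had 3 UMIs in WT and 0 in KO, Ifnb1 0 and 1, and Ifnk 3 and 16. The other 6 ligand genes searched, Ifna1, Ifna2, Ifna4, Ifnl2, Ifnl3 and Ifne, had 0 in both libraries, which allows up to 0.0252 CPM in WT and 0.0272 CPM in KO. Of 9 marker genes of T or NK cells, the usual makers of interferon gamma, 1 reached 10 CPM. This was Nkg7, with 4412 UMIs in WT and 1988 in KO (log2 ratio of CPM -1.04), which was also among the leading genes of clusters 12 and 14. The other 8 summed to 6.82 CPM in WT and 13.6 CPM in KO. Among them the cytotoxic granule genes Gzma (180 and 483 UMIs, 1.53) and Gzmb (51 and 177 UMIs, 1.90), Klrd1 (0.69), Ncr1 (1.04) and Il2rb (0.56) had intervals of the ratio above 0. Genes of the T cell receptor complex, Cd3e (9 and 2 UMIs), Cd3d (67 and 74) and Cd3g (43 and 45), had intervals that include 0. The part of these cells in the GTPase result was not tested. Of the 5 receptor genes 4 were measured and 0 were 1.5-fold different (median 0.16), with Ifnar1, a type I receptor chain, at 18.6 and 25.2 CPM (0.44) and Ifngr1, the gamma receptor chain, at 188.4 and 171.8 CPM (-0.13).

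Among the signal transducers, Stat2 had 12.6 CPM in WT and 22.0 in KO (0.80) and Irf9 had 25.7 and 36.1 (0.49), while Jak1 had a log2 ratio of 0.18. Of 6 measured IRF genes, 2 were higher: Irf7, which amplifies type I responses (10.3 and 18.6 CPM, 0.85), and Irf1, a mediator of gamma responses (25.3 and 42.7 CPM, 0.76). Of 6 measured inhibitors, 2 were higher: Socs3 (1.03) and Usp18, a brake on type I receptor signalling (0.99).

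Genes of both interferon programmes were represented among the higher ones. Of the 21 antiviral genes of the type I response, 12 were measured, 9 were at least 1.5-fold higher in KO and 0 lower, with a median of 0.82. The largest log2 ratios were those of Ifi204, of a DNA-sensing family (1.21), Oasl2, of the oligoadenylate synthetase-like family (1.13), Rtp4 (1.05) and Zbp1, a nucleic acid sensor (0.98). Isg15, a ubiquitin-like modifier, had 17.7 and 34.0 CPM (0.94), and Bst2 a ratio of 0.28. Of 16 genes responsive to interferon gamma, 13 were measured, 3 were higher and 0 lower (median 0.29): Nlrc5, a transactivator of MHC class I genes (0.78), and the MHC class II genes H2-Eb1 (0.66) and H2-Aa (0.62). Cd274 was at 0.54. Over all cells Cd74, the invariant chain gene, was at 129.9 and 129.8 CPM. Within classes it was higher in KO in HSC/MPP-like cells (12.5 and 59.8 CPM, 2.25) and monocyte-like cells (150.2 and 291.4 CPM, 0.96). Cxcl10 lay under the minimum over all cells (192 and 1288 UMIs). In monocyte-like cells it was at 2.62 and 32.0 CPM. Of 10 genes of the ubiquitin-like conjugation machinery of autophagy, through which IRG and GBP proteins are recruited, all 10 were measured and 0 were 1.5-fold different (median 0.08).

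Markers of other cell types moved between the libraries too. Of 9 erythroid markers, 9 were at least 1.5-fold lower in KO, and 4 of 5 measured maturing neutrophil markers were higher. Both of these classes had GTPase levels at the low end in WT. HSC/MPP markers, of the class with the highest GTPase levels, summed to 1559 CPM in WT and 1922 CPM in KO, and 2 of 7 were higher, Adgrl4 (0.73) and Hlf (0.65). Lymphoid progenitor markers were higher in 3 of 4 (median 0.87). Under the minimum, Il7r was lower (592 and 326 UMIs, -0.75), Rag1 was higher (45 and 68 UMIs, 0.70) and Rag2 was level within counting error. Eosinophil markers were lower in 2 of 2 (median -2.84), and plasma cell markers in 2 of 3. With the 3 classes of at least 200 cells per library weighted alike, the log2 ratio of the 9 genes was 0.51, and with clusters weighted alike 0.49. Macrophage markers summed to 41.7 and 48.1 CPM. Of the 2 measured, Adgre1 was higher (0.81) and Vcam1 lower (-1.31), and C1qa, C1qb and C1qc, each under the minimum, were together at 4.34 and 19.4 CPM. The part of these markers in the GTPase result was not tested.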

How the data were processed

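Single-cell RNA was measured in 1 WT and 1 KO library. The deposited matrices hold whole UMI counts per gene and cell barcode, made with Cell Ranger 6.0.2 per the file headers. The submitters' processing notes give GRCm38 and an earlier release, Cell Ranger 3.0.1. The annotation release is not stated. The libraries held 131667969 (WT) and 120408100 (KO) UMIs over 5287 and 5260 barcodes. Left out were barcodes under 500 genes (51 WT, 32 KO) or over 10% mitochondrial UMIs (553 and 314), and the 224 and 221 barcodes with the highest Scrublet doublet scores, set at 0.8% per 1000 barcodes because Scrublet's own threshold marked 5 and 89.

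The kept cells of WT and KO entered 1 clustering on 2000 variable genes chosen within libraries, with no batch integration. Mitochondrial, ribosomal, sex-linked and haemoglobin genes and 108 interferon-related genes, the 9 described ones included, were not used. Leiden clusters at resolution 1 came from a graph of 15 neighbours over 30 principal components. A class name needed a marker score (median log2 fold of its markers against other cells) of at least 1, 3 markers found in 25% of the cells, and at least as many own markers as those of any other class among the top 10 genes. It also needed 1 own marker among the top 50, and part of this rule was set after clusters had been seen.

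UMIs were summed per library, and a gene counted as higher or lower at 1.5-fold with a mean of at least 10 CPM. Genes named outside the 9 are up to 4 per list by size of ratio at 10 CPM or more, Phf6, the 8 genes with the most similar pattern over clusters, and genes near 0. Tgtp1, Tgtp2, Gbp6, F830016B08Rik, Gvin1, Cxcl10, Jak1, Cd74, Bst2, Isg15, Ifi44, Ifit1, Cmpk2, C1qa, C1qb, C1qc, Il7r, Rag1, Rag2, marker genes with values in a class or cluster, T or NK cell markers other than Nkg7 and the leading genes of clusters were named after their values were seen. Of 108 listed genes 104 were matched by symbol. The members, lists and markers were chosen with earlier results of these data known. The alternatives were another cell filter, doublets kept, TMM and median-of-ratios scaling, other weightings of cells, classes and clusters, other minimum levels, other clusterings and another thinning depth. The interval method was tested on simulated counts. Gene positions came from GENCODE M21 and promoter sequences from RefSeq (GRCm38.p6). Some genes that the rule names are not reported here. Neither reads of the vector nor sequence variants were examined. The versions used were Python 3.11.15, scanpy 1.11.5, numpy 2.4.6, scipy 1.17.1, pandas 2.3.3, leidenalg 0.10.2, igraph 0.11.9, biopython 1.88, matplotlib 3.10.9 and, for TMM factors, edgeR 4.0.16 in R 4.3.3.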

Additional observations from a re-analysis of the deposited data

Results flagged for a closer look

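The KO over WT ratio of Iigp1 pointed in opposite directions in clusters 10 and 18, both counted as monocyte-like, although cluster 18 scored higher for macrophage (5.41) than for monocyte markers (2.53). In cluster 10 its log2 ratio was 7.47, from 1 WT and 217 KO UMIs, and in cluster 18 it was -1.41, from 23 and 16 UMIs, with both intervals clear of 0. The difference between the clusters was not tested. In cluster 18, 1 WT cell held 21 of the 23 UMIs, and the interval without it included 0.

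Gbp3 likewise pointed both ways. Its log2 ratio was 1.22 in erythroid-like cluster 13 (6.76 CPM in WT, 15.7 in KO) and -0.41 in the unnamed cluster 14 (39.0 and 29.4 CPM), again with intervals clear of 0. That difference was not tested either. Over the 22 clusters the interval of Gbp3 lay above 0 in 2 and below 0 in 1. The intervals make no allowance for the number of genes and clusters looked at.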

How the results depend on the processing

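Every alternative run kept the direction of the summed ratio over all cells and in the 3 classes. Over all cells the log2 ratio of 0.61 became 0.55 with TMM scaling and 0.53 with median-of-ratios scaling, 0.64 as a mean per cell, 0.51 with the 3 classes weighted alike, 0.48 without the 5% of cells richest in these UMIs, and 0.80 without Ifi47. Chosen after seeing the data, it was 0.50 without Iigp1, 0.48 without cells of 10 or more Iigp1 UMIs and 0.49 with clusters weighted alike, and the monocyte-like ratio was 0.59 without cluster 18. In HSC/MPP-like cells 0.65 became 0.55 (TMM), 0.58 (median of ratios), 0.48 (without the richest cells), 0.58 (stricter cell filter), 0.59 (resolution 0.5), 0.71 (resolution 2) and 0.76 (interferon genes kept in the clustering). In monocyte-like cells 0.57 became 0.40 without the richest cells and 0.66 with classes from marker scores per cell. The count of 4 genes became 0 at a minimum of 50 CPM, and 3 both without the richest cells and without cells of 10 or more Iigp1 UMIs, where the mean of Iigp1 fell under 10 CPM. Thinned to 10000 UMIs, the shares of cells with a UMI became 80.5% (WT) and 86.5% (KO). The cause was not tested where a setting did not fix it by construction. TMM and median-of-ratios scaling moved the median of all genes from 0.06 to -0.01 and -0.03. No paired analysis was possible because each genotype is 1 library. Genes with few UMIs in a cluster, Gbp9 above all, could not be resolved at this depth.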
